A study of Homo sapiens with 48 samples.

Results

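Polyamines are small positively charged metabolites that bind RNA and are needed for growth, and 8 genes of their synthesis, breakdown and feedback control were followed here. They were ODC1, AMD1, SRM, SMS, OAZ1, OAZ2, AZIN1 and SAT1, taken by gene name from the deposited table, and they made up 8 of its 57820 genes. All 8 passed the filter on low counts, which kept 19129 genes. RNA had been sequenced from 48 libraries of HEK293-derived Flp-In 293 T-REx cells, a human embryonic kidney line in which a transgene is inserted at a fixed genomic site. Each of 8 stable lines carried its own transgene. The line called CLIP expressed the CLIP tag with no UPF1, and the line called WT expressed CLIP-tagged wild-type UPF1. K498A, DE636AA, R843C, A546H, GA-KH and E797R expressed CLIP-UPF1 with the change in their name. In K498A and DE636AA the change lies in the helicase motifs that bind ATP and hydrolyse it, respectively. Every line was transfected for 72 h with 40 nM of a non-targeting siRNA (siNT) or of an siRNA against endogenous UPF1 (siUPF1), with 3 libraries in each of the 16 groups. All lines kept their endogenous UPF1 gene. The study asked how control of the UPF1 ATPase relates to nonsense-mediated mRNA decay (NMD), in which UPF1 is the central helicase.

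Ornithine decarboxylase (ODC1) makes putrescine from ornithine, and S-adenosylmethionine decarboxylase (AMD1) supplies the aminopropyl groups with which spermidine synthase (SRM) and spermine synthase (SMS) build the longer polyamines. Spermidine/spermine acetyltransferase (SAT1) starts their breakdown and export. The antizymes OAZ1 and OAZ2 bind ODC1 protein, send it to the proteasome and limit polyamine uptake, while the antizyme inhibitor AZIN1, an ODC1-like protein without the enzyme's activity, binds antizyme and frees ODC1. Synthesis of full antizyme needs a +1 ribosomal frameshift that polyamines stimulate, since a stop codon ends the first reading frame early. SAT1 transcripts can include an extra exon with an early stop codon, a form known as an NMD substrate whose inclusion falls when polyamines are high.

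The stop codons that make these transcripts relevant to a decay pathway that reads stop codons are shown here from the GENCODE v29 annotation of GRCh38. In both antizymes the first frame ends in TCC followed by TGA, in capitals, and reading resumes in the +1 frame by skipping the T of TGA.

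OAZ1 frameshift site, chr19:2271413-2271484, plus strand: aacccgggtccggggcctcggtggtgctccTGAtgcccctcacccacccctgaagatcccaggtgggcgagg
OAZ2 frameshift site, chr15:64691474-64691545, minus strand: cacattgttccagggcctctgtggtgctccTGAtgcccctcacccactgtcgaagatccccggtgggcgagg

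The 72-base windows lie in coding sequence and share 60 positions (83.3%), with an identical run of 27 bases that contains the stop codon. The first frame is 68 codons long in OAZ1 and 32 in OAZ2, and the +1 frame after it runs for 160 and 157 codons. In SAT1 the extra exon holds a TAG, in capitals, in frame with the upstream coding sequence.

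SAT1 extra exon, chrX:23784294-23784403, plus strand: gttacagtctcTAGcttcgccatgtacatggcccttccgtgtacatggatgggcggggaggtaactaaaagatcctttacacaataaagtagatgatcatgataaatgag

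This exon of 110 bases is exon 4 of 7 in the transcript SAT1-209, annotated as a processed transcript, and is absent from the 6-exon coding transcript. Its TAG follows 71 codons, against 171 codons in the full protein, and 3 exon junctions lie downstream, the last 239 bases after the stop. The deposited table gives 1 value per gene, so the form with the extra exon and the coding form were counted together. The same holds for transcript forms of the other genes. GENCODE v29 types 2 transcripts of AMD1, 1 of OAZ1 and 1 of SRM as NMD targets, and 0 of SAT1. It types 7 of OAZ1, 2 of AMD1 and 1 each of OAZ2, AZIN1 and SRM as having a retained intron.

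The libraries held 21.3 to 47.1 M expected counts each, with a median of 32.3 M, of which the 8 genes took 0.154 to 0.253%. Levels are given as CPM, expected counts scaled to a normalised library total of 1 M. With siUPF1, UPF1 itself fell in CLIP from 105, 106 and 113 CPM to 18.2, 36.8 and 17.7 CPM in replicates 1, 2 and 3 (log2 fold change -2.17, SE 0.17, adjusted p = 4.83e-13). Every adjusted p is from the quasi-likelihood test of edgeR, with the Benjamini-Hochberg method applied over all tested genes within a comparison, and a gene is called where it is under 0.05. In the 7 lines with CLIP-UPF1 the siNT level was 38.5 to 52.0 times that of CLIP, and the counts merge transgene and endogenous gene, so depletion cannot be read there. Group means of UPF1 in these lines ran from 4165 CPM in R843C to 5614 in DE636AA with siNT. With siUPF1 they ran from 3958 in R843C to 7218 in DE636AA, and WT was at 5287 and 4844. Whether these UPF1 levels bear on differences between lines was not tested. All 7 markers expected of HEK293 cells passed the filter. VIM (430.1 to 807 CPM), NEFL, KRT8 and KRT18 were at 74.5 CPM or more in every library, while PAX2, LHX1 and NEFM were low, at 0.842 to 8.89 CPM. Of 12 markers of other cell types, PECAM1 had no match in the table. The epithelial gene EPCAM ran from 64.9 to 100.2 CPM, the other 10 stayed at or below 13.4 CPM, and INS was at 0.

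CLIP siUPF1 replicate 2 was the lowest of all 48 libraries in 5 of the 8 genes (ODC1, AMD1, SMS, OAZ2 and AZIN1). SMS was at 271, 121 and 283 CPM in replicates 1, 2 and 3, AMD1 at 132, 61.0 and 148, and AZIN1 at 175, 81.6 and 188. In that replicate UPF1 was at 36.8 CPM, above the 18.2 and 17.7 of the others, SAT1 was the lowest and SRM the highest of its group, and OAZ1 lay close to replicate 1. Results for the 8 genes that use it are therefore given with all 48 libraries and again without this one, a setting chosen after the data were seen. The counts of CLIP siUPF1 replicate 2 over all tested genes stood apart as well. Their chi-square per degree of freedom was 129 against replicate 1 and 127 against replicate 3, and 14.9 between those replicates. The highest value in any other group was 49.5, in E797R siUPF1. Why this library differs was not tested.

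**Figure D1:**
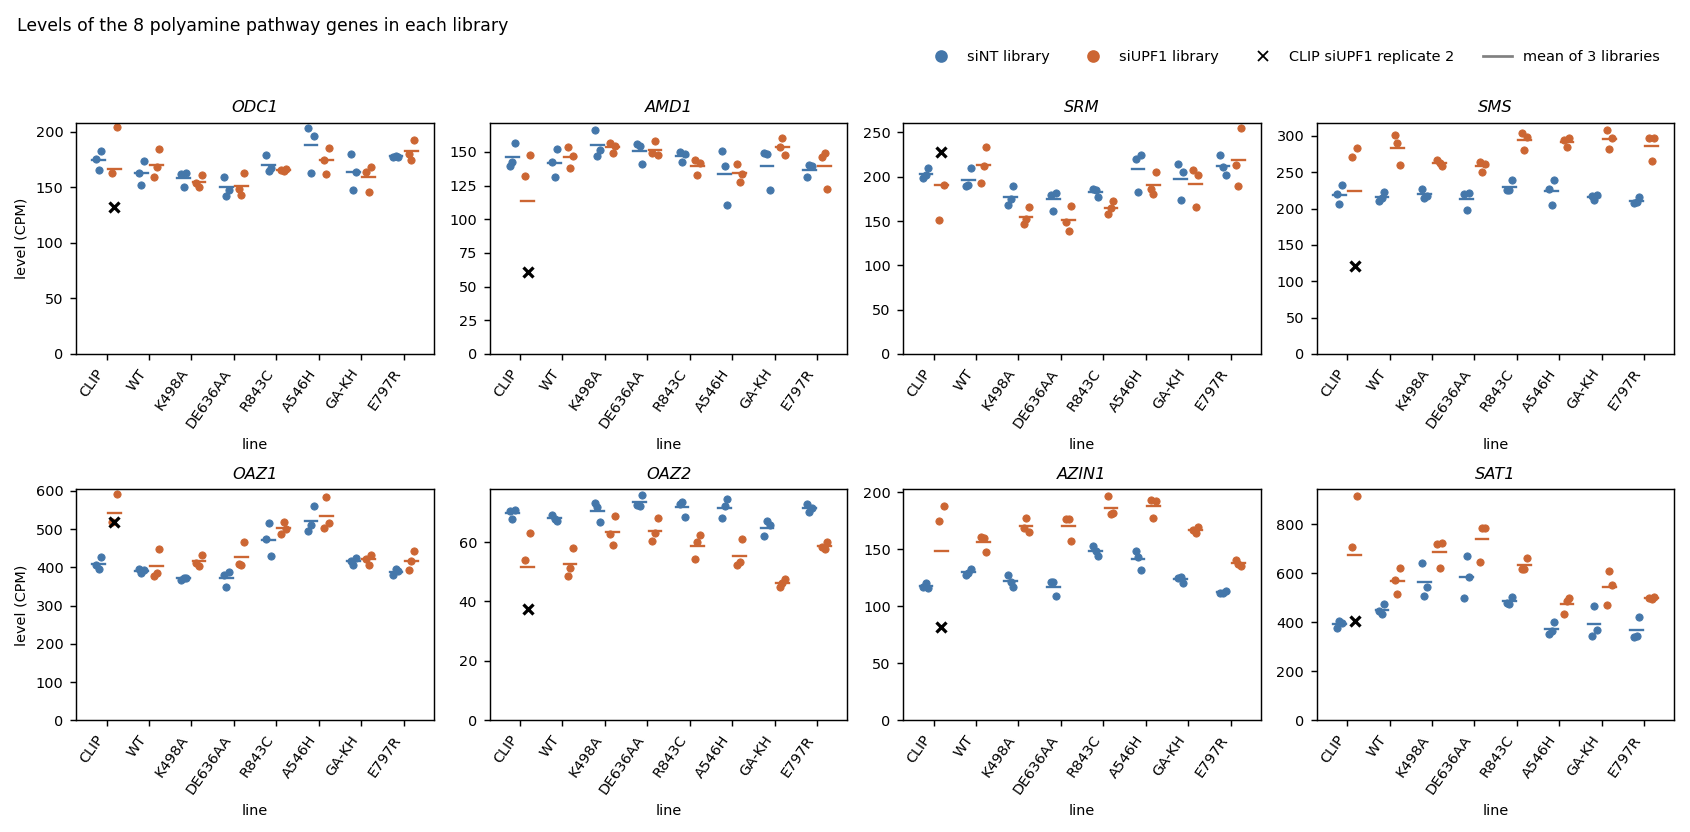
Level in CPM (vertical axes, linear from 0) of each gene in all 48 libraries, by line (horizontal axes); blue points are siNT, orange points siUPF1, bars the mean of 3 libraries and the cross CLIP siUPF1 replicate 2. The siUPF1 points of SMS and AZIN1 lie above the siNT points in 7 of 8 lines, those of OAZ2 lie below in 7, and the cross is the lowest of all points for ODC1, AMD1, SMS, OAZ2 and AZIN1.

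With siUPF1, AZIN1 rose in 6 lines, SMS in 5 and SAT1 in 3, and OAZ2 fell in 6. OAZ1 rose in 2, CLIP (0.41), which has no UPF1 transgene, and DE636AA (0.20). Of all tested genes, 10.7% rose in at least 6 lines, 13.7% rose in at least 5 and 9.60% fell in at least 6. No such share is given for the line counts of SAT1 and OAZ1. ODC1 and SRM, which hold the first synthesis step and the spermidine step, were called in no line, and AMD1 only in CLIP, a call lost without replicate 2 of its siUPF1 libraries. As these are bulk libraries, a lower level in part of the cells and less RNA in each cell cannot be told apart. Over the 8 knockdown responses (siUPF1 against siNT within a line), 23 of 64 tests of the 8 genes were called, 16 higher and 7 lower, beside 33.0% of the tests of all genes. The share of called tests is thus near that of all tested genes. When CLIP siUPF1 replicate 2 was left out, 32 of 64 were called, 25 higher and 7 lower, beside 37%.

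By line, 3 of the 8 genes were called higher in CLIP and 2 lower, where 25.1% and 22.3% of all tested genes were. Without replicate 2 these were 4 and 1, beside 21.4% and 19.1%. Fitted to the 6 CLIP libraries alone, 1 of the 8 was called, OAZ1 (0.40, adjusted p = 0.0331), while SAT1 (0.77), OAZ2 (-0.44), AZIN1 (0.32) and AMD1 (-0.38) had adjusted p = 0.0686 to 0.427. No share over all genes is given for that fit. WT had 1 higher and 1 lower (14% and 13.3% of all genes), K498A 1 and 0 (16.2% and 16.5%), and DE636AA 2 and 0 (16.7% and 17.6%). R843C had 2 and 1 (17.7% and 14.8%), A546H 2 and 1 (17.2% and 15%), GA-KH 3 and 1 (14.5% and 13.8%), and E797R 2 and 1 (16% and 13.5%). The median log2 fold change of the 8 genes stayed between -0.01 in CLIP and 0.11 in DE636AA. Genes were called in both directions in every line except K498A and DE636AA, where none was called lower. Medians over all tested genes ran from -0.02 to 0.02.

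**Figure D2:**
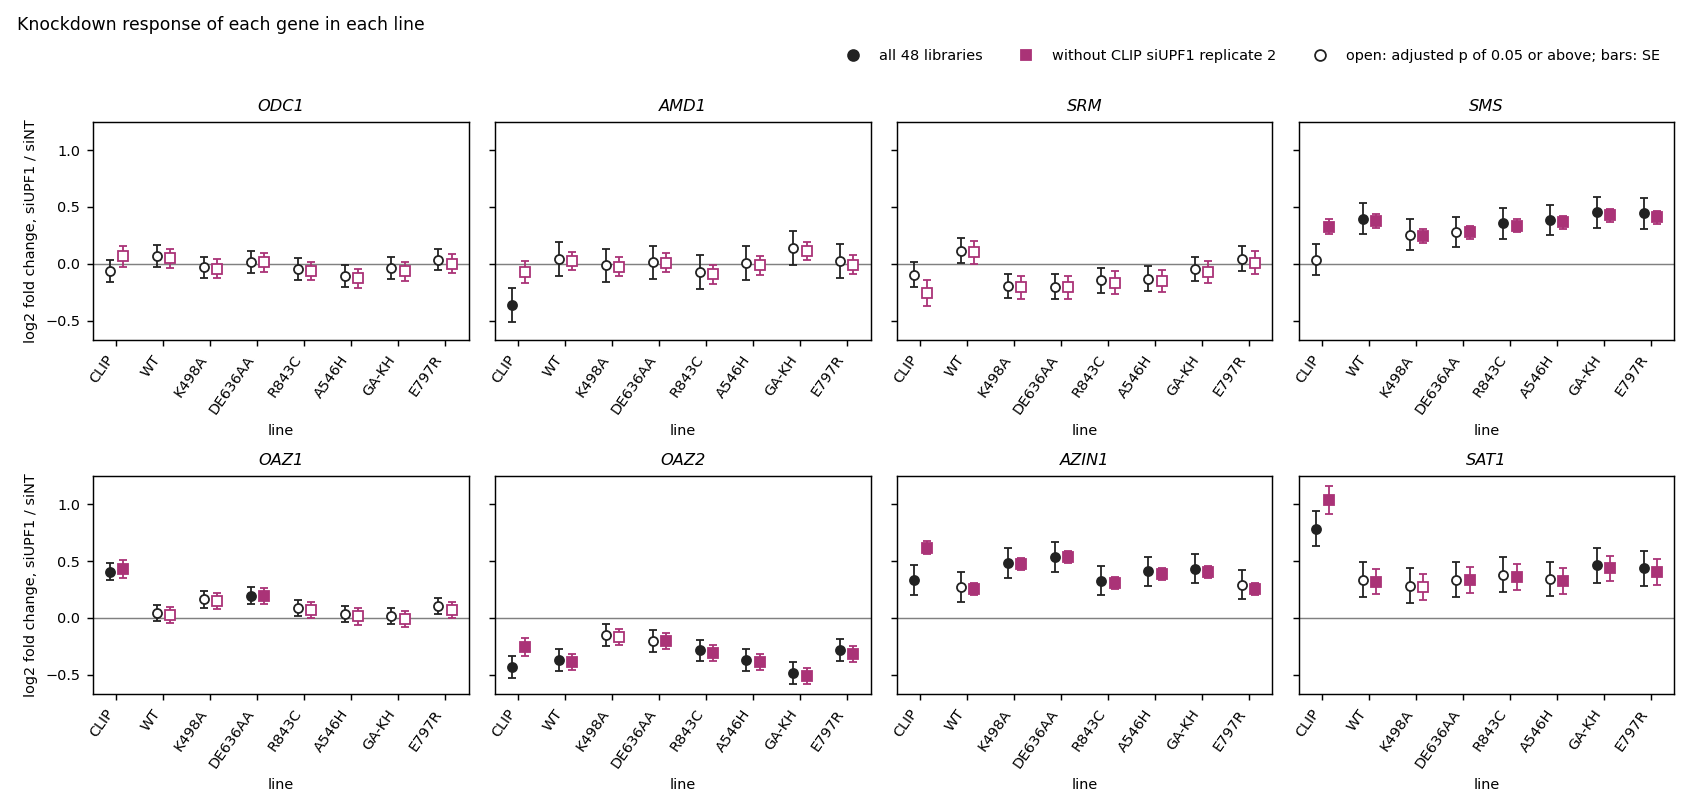
Log2 fold change of siUPF1 against siNT (vertical axes) for each gene in each line (horizontal axes), with the standard error as bars; circles use all 48 libraries, squares leave out CLIP siUPF1 replicate 2, and open symbols have an adjusted p of 0.05 or above. AZIN1 and SMS squares are filled and above 0 in all 8 lines, and the CLIP symbols of SAT1, at 0.78 and 1.04, lie above those of the other lines.

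The first enzyme of the pathway did not change detectably. ODC1 with siNT was at 175, 166 and 182 CPM in CLIP and 162, 152 and 173 in WT, and with siUPF1 at 163, 133 and 204 and 159, 168 and 184. The siNT and siUPF1 ranges overlapped in all 8 lines. Log2 fold changes ran from -0.11 to 0.07 (SE 0.10, adjusted p = 0.424 to 0.923). The 95% intervals reached -0.30 at the lowest, in A546H, and 0.26 at the highest, in WT. Left out of the fit, CLIP siUPF1 replicate 3 gave -0.24 (adjusted p = 0.0281) in CLIP, the only fit with a library left out in which ODC1 passed the threshold in a response.

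AMD1, the second rate-limiting enzyme, was called lower in CLIP with all libraries, at -0.36 (SE 0.15, adjusted p = 0.0423). Its libraries were 139.5, 142 and 156 CPM with siNT and 132, 61.0 and 148 with siUPF1. Replicates 1 and 3 overlapped the siNT range and replicate 2 alone was low. Without it the value was -0.07 (SE 0.09, adjusted p = 0.575), and the call was also lost without CLIP siNT replicate 1, 2 or 3 (-0.39, -0.38 and -0.31). In the other 7 lines the change ran from -0.07 to 0.14 (adjusted p = 0.528 to 0.977), and the ranges overlapped in each.

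SRM, which makes spermidine, ran from 139 to 255 CPM in the 47 libraries other than CLIP siUPF1 replicate 2. It was called in no line, with changes of -0.20 to 0.12 (SE 0.11, adjusted p = 0.155 to 0.807). All siUPF1 libraries were below all siNT libraries in K498A (168, 174 and 189 against 146, 153 and 165 CPM). The same held in R843C (186, 185 and 177 against 159, 164 and 172). The respective values were -0.19 (95% interval -0.42 to 0.03) and -0.15 (95% interval -0.37 to 0.08). In the fit to the R843C libraries alone SRM passed the threshold at -0.16 (adjusted p = 0.011). In CLIP the change was -0.10 (adjusted p = 0.492) with all libraries and -0.26 (adjusted p = 0.0672) without replicate 2.

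SMS, which turns spermidine into spermine, was higher with siUPF1. With siNT it was at 210.0, 214 and 223 CPM in WT and with siUPF1 at 301, 291 and 260.1. In GA-KH the libraries were 218, 212 and 218 and 308, 282 and 297, and in E797R 207, 209 and 216 and 297, 265 and 297. Every siUPF1 library of these 3 lines exceeded every siNT library. A546H went from 227, 205 and 239.6 to 295, 285 and 297 CPM, and R843C from 225, 226 and 239 to 304, 280.3 and 299. K498A libraries were 227, 215 and 217 and 266, 263 and 259, and DE636AA libraries 219, 198 and 222 and 265, 251 and 261. The groups were again separate, so that siUPF1 lay above siNT in 7 of 8 lines, as for 10.3% of all tested genes. CLIP was the exception, with 219.7, 206 and 233 CPM against 271, 121 and 283, where replicate 2 fell below the siNT range and the other two lay above it.

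SMS was called higher in 5 lines, a count reached by 13.7% of all genes. The log2 fold change was 0.45 (SE 0.14, adjusted p = 0.0104) in GA-KH, 0.44 (SE 0.14, adjusted p = 0.0116) in E797R and 0.40 (SE 0.14, adjusted p = 0.0263) in WT. It was 0.39 (adjusted p = 0.0271) in A546H and 0.35 (adjusted p = 0.0419) in R843C. In DE636AA and K498A it was 0.28 (adjusted p = 0.111) and 0.26 (adjusted p = 0.151), and in CLIP 0.04 (adjusted p = 0.847). The R843C call was lost without any 1 of its 6 libraries, that of A546H without any except siNT replicate 3, that of WT without siNT or siUPF1 replicate 1 or 2, and that of GA-KH without siUPF1 replicate 1. The spread of SMS shrank when CLIP siUPF1 replicate 2 was left out, and it was called higher in all 8 lines (0.24 to 0.43, SE 0.06 to 0.07), CLIP included at 0.33 (adjusted p = 8.12e-05). That library was set apart partly for its low SMS, so a larger CLIP value and a smaller SE follow from leaving it out. The CLIP value then rests on siUPF1 replicates 1 and 3 alone. All 8 lines were reached by 6.62% of all genes in that fit. Differences of a line's response from that of CLIP then ran from -0.08 to 0.10 (adjusted p = 0.575 to 1).

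OAZ1, the main antizyme, rose in the cells that had no UPF1 transgene. Its CLIP libraries went from 405, 395 and 427 CPM with siNT to 518, 519 and 591 with siUPF1, with no overlap, and replicate 2 lay with replicate 1. The change was 0.41 (SE 0.07, adjusted p = 1.06e-05), or 1.33-fold, and 0.43 (SE 0.08, adjusted p = 2.76e-05) without replicate 2. In WT the libraries were 396, 384 and 393 CPM and 378, 384 and 447, and in GA-KH 417, 407 and 424 and 423, 406 and 433. Both overlapped, with changes of 0.04 (95% interval -0.10 to 0.19) and 0.02 (95% interval -0.13 to 0.16). A546H libraries were 494, 509.9 and 560.1 and 503, 583 and 516, R843C libraries 473, 515 and 429 and 488, 518 and 501, and E797R libraries 379, 394 and 390.1 and 394, 415 and 442. These overlapped as well, and the changes were 0.03 (adjusted p = 0.759), 0.09 (adjusted p = 0.375) and 0.11 (adjusted p = 0.289).

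The motif mutants K498A and DE636AA lay between these. OAZ1 went from 368, 372 and 373 to 410.3, 404 and 432 CPM in K498A, and from 380.3, 349 and 389 to 408, 407 and 467 in DE636AA, with no overlap in either line. The rise in DE636AA was called at 0.20 (SE 0.07, adjusted p = 0.0296), a call lost without siNT replicate 2 (0.15) or siUPF1 replicate 3 (0.12), and in K498A the value was 0.16 (SE 0.07, adjusted p = 0.0787). OAZ1 also differed between lines in the test of the difference itself. The response minus that of CLIP was -0.39 (adjusted p = 0.00689) in GA-KH, -0.37 (adjusted p = 0.0206) in A546H, -0.36 (adjusted p = 0.0129) in WT and -0.30 (adjusted p = 0.0404) in E797R, each with SE 0.10. The differences of -0.32 (adjusted p = 0.158) in R843C, -0.25 (adjusted p = 0.101) in K498A and -0.21 (adjusted p = 0.146) in DE636AA did not pass. All 7 differences use the same 6 CLIP libraries. A response is relative to the siNT level of its own line, so a smaller response need not mean a lower siUPF1 level. Group means with siNT and siUPF1 were 409 and 543 CPM in CLIP, and 391 and 403 in WT. In GA-KH they were 416 and 421, and in E797R 388 and 417. A546H was already high with siNT (521 and 534), and R843C was at 472 and 502.

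These 4 were the only calls among 56 tests of the 8 genes against CLIP. The share of all tested genes called lower was 11.6% in DE636AA, 9.57% in K498A, 8.08% in WT and 0.643% in R843C. It was 9.44% in GA-KH, 8.52% in E797R and 4.03% in A546H. Fits to only the libraries of each comparison gave OAZ1 differences of similar size (-0.32 to -0.42) and no call (adjusted p = 0.064 to 0.269). With no filter on low counts the OAZ1 differences of these 4 lines were not called either (-0.32 to -0.40, adjusted p = 0.0584 to 0.188). That setting called 6 others: SAT1 lower in WT, K498A, DE636AA and A546H (-0.41 to -0.48), and AMD1 higher in DE636AA and GA-KH (0.41 and 0.49). The call in E797R was lost in 8 of 12 fits that left out 1 library (any 1 of its own except siUPF1 replicate 3, CLIP siNT replicate 1 or 2, or CLIP siUPF1 replicate 3). That in A546H was lost without its siNT replicate 3, its siUPF1 replicate 1 or CLIP siNT replicate 2, that in WT without its siUPF1 replicate 1, and that in GA-KH in none of 12.

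OAZ2, the second antizyme, moved the other way. It fell in GA-KH from 61.9, 66.9 and 65.7 CPM to 44.9, 46.3 and 47.6, in WT from 69.2, 67.7 and 67.1 to 48.7, 51.1 and 58.0, and in CLIP from 70.4, 67.8 and 70.7 to 54.0, 37.5 and 63.1. In all 3 lines every siUPF1 library was below every siNT library, and CLIP siUPF1 replicate 2 was the lowest of all 48. A546H fell from 68.0, 72.0 and 74.5 to 52.2, 53.2 and 60.9, R843C from 72.9, 73.6 and 68.5 to 54.1, 59.9 and 62.2, and E797R from 72.7, 70.2 and 71.3 to 58.5, 57.5 and 60.0. DE636AA libraries were 72.5, 72.2 and 75.8 and 60.3, 63.1 and 68.1 CPM. K498A libraries were 73.2, 71.7 and 66.7 and 62.8, 59.0 and 68.6, the only line with overlap. Separation downward in 7 of 8 lines was met by 9.68% of all genes.

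The fall of OAZ2 was called in 6 lines, as it was for 9.60% of all genes. It was -0.49 (SE 0.10, adjusted p = 0.000143) in GA-KH, -0.43 (SE 0.10, adjusted p = 0.000317) in CLIP and -0.37 (SE 0.10, adjusted p = 0.00329) in WT. Smaller falls were called in A546H (-0.37), R843C (-0.29) and E797R (-0.28, adjusted p = 0.00309, 0.0196 and 0.0225). The call in R843C was lost without its siNT replicate 1 or 2 or siUPF1 replicate 1, and that in E797R without its siNT replicate 1 or 3 or siUPF1 replicate 2. DE636AA and K498A had -0.20 (adjusted p = 0.1) and -0.15 (adjusted p = 0.236). In the fit without CLIP siUPF1 replicate 2 the CLIP value was -0.26 (SE 0.08, adjusted p = 0.00747), DE636AA was called at -0.20 (adjusted p = 0.0171), and OAZ2 was then lower in 7 lines, a count met by 9.55% of all genes. No response of OAZ2 was called different from that of CLIP or WT in either fit.

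AZIN1, which counters the antizymes, was higher with siUPF1 in nearly every line. In DE636AA it went from 121, 121 and 109 CPM to 177, 177 and 157, in K498A from 128, 121 and 117 to 169, 178 and 165, and in GA-KH from 125, 126 and 121 to 167, 165 and 169.9. Each of these 3 lines had separate groups. A546H libraries were 149, 143 and 132 and 193, 178 and 191.98, and R843C libraries 153, 149 and 144 and 197, 181 and 182. WT libraries were 127, 129.5 and 132 and 161, 159.9 and 148, and E797R libraries 112, 111 and 113 and 141, 137 and 135. These 4 lines were separate too, with the smallest steps in WT and E797R. In CLIP, siNT libraries at 117, 121 and 116 CPM compared with siUPF1 libraries at 175, 81.6 and 188, so that replicate 2 lay below and the others above.

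AZIN1 was called higher in 6 lines, beside 10.7% of all genes. The largest values were 0.54 (SE 0.13, adjusted p = 0.00128) in DE636AA, 0.48 (SE 0.13, adjusted p = 0.00373) in K498A, 0.43 (SE 0.13, adjusted p = 0.0105) in GA-KH and 0.41 (SE 0.13, adjusted p = 0.0143) in A546H. CLIP and R843C were called at 0.33 (adjusted p = 0.0337) and 0.33 (adjusted p = 0.0493), and WT and E797R had 0.27 (adjusted p = 0.128) and 0.29 (adjusted p = 0.089). The R843C call was lost without any 1 of its 6 libraries, that of A546H without siNT replicate 3, and that of CLIP without any 1 library except siUPF1 replicate 2 (0.12 to 0.35). Leaving out CLIP siUPF1 replicate 2 gave a CLIP value of 0.62 (SE 0.06, adjusted p = 3.68e-11), or 1.53-fold, and AZIN1 was called higher in all 8 lines (0.25 to 0.54 in the other 7). That library was set apart partly for its low AZIN1, so a larger CLIP value and a smaller SE follow from leaving it out. The CLIP value then rests on siUPF1 replicates 1 and 3 alone. In that fit the AZIN1 response of a line minus that of CLIP was called lower, at -0.36 (adjusted p = 0.00115) in WT, -0.36 (adjusted p = 0.00137) in E797R and -0.31 (adjusted p = 0.0424) in R843C. The other 4 differences from CLIP were -0.23 to -0.08 (adjusted p = 0.0895 to 0.579). With all libraries no AZIN1 difference from CLIP was called (-0.06 to 0.20).

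SAT1, the breakdown enzyme, had the largest change of the 8 genes in CLIP. Its level went from 376, 404 and 399 CPM to 709, 405 and 913, where replicate 2 barely exceeded the siNT range and replicates 1 and 3 were far above it. The change was 0.78 (SE 0.15, adjusted p = 5.18e-05), or 1.72-fold. It was 1.04 (SE 0.12, adjusted p = 9.54e-09), or 2.05-fold, without replicate 2, and 0.75 and 0.50 without replicates 1 and 3, all called. In the other lines the steps were smaller. GA-KH went from 346, 468 and 369 CPM to 471, 608 and 551 and E797R from 342, 342 and 421 to 497.7, 495 and 503, both separate. WT libraries were 446, 432 and 476 and 573, 517 and 619.7, R843C libraries 478, 476 and 503 and 616, 619 and 660.4, and A546H libraries 352, 366 and 400.0 and 434, 487 and 497. They did not overlap either, so that siUPF1 lay above siNT in 6 lines, as for 14.5% of all genes. K498A (640.4, 509 and 545.9 against 718, 620.2 and 724) and DE636AA (500.4, 671 and 583 against 645, 784 and 785) overlapped and started from higher siNT levels.

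Besides CLIP, the rise of SAT1 was called in GA-KH (0.46, adjusted p = 0.0196) and E797R (0.44, adjusted p = 0.0265), and the other 5 lines had 0.28 to 0.38 (SE 0.15, adjusted p = 0.0518 to 0.157). The GA-KH call was lost without siNT replicate 1 or 3 or siUPF1 replicate 2 or 3, and that of E797R without any 1 library except siNT replicate 3. In the fit without CLIP siUPF1 replicate 2, SAT1 was called in 7 lines, all but K498A (0.27, adjusted p = 0.0548), as 8.85% of all genes were. The 6 called values outside CLIP were 0.32 to 0.44 (SE 0.11). In the same fit each of the 7 responses was called lower than that of CLIP, with differences of -0.77 to -0.60 (SE 0.17, adjusted p = 0.00164 to 0.033), while 0.747% of all tested genes were called lower in all 7. These differences rest on 2 CLIP siUPF1 libraries, shared by all 7. With all 48 libraries the same differences were -0.50 to -0.32 (SE 0.21 to 0.22), and none was called (adjusted p = 0.117 to 0.488).

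Over all 8 genes the fit without that library called 14 of 56 differences from CLIP, all lower (7 of SAT1, 4 of OAZ1 and 3 of AZIN1), beside 6.24% of the tests of all genes. Which library is left out decides this count. Without CLIP siUPF1 replicate 3, which leaves replicate 2 as 1 of 2 libraries, 14 were also called, but 11 of them were higher than CLIP (6 of AMD1, 3 of SMS and 2 of OAZ2) and 3 lower (OAZ1). Without replicate 1 there were 8, of which 3 were higher (2 of SMS and 1 of AMD1) and 5 lower (OAZ1). No share over all genes is given for the fits without replicate 1 or 3, so these counts cannot be set beside one. OAZ1 was thus the gene called lower than CLIP with each of the 3 libraries left out.

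Wild-type UPF1 is the reference for the mutants, and no gene of the 8 was called to respond differently in a mutant line than in WT. Of 48 edgeR tests 0 passed, 1 had an unadjusted p under 0.05 (SRM in DE636AA, at -0.32, 95% interval -0.63 to -0.01), and DESeq2 called 0 as well. Over all tested genes 4.50% differed from WT in DE636AA, 3.26% in K498A, 1.94% in R843C and 0.298% in A546H. In GA-KH and E797R the share was 0%, with 315 and 359 of 19129 genes at an unadjusted p under 0.05 and 0 called by DESeq2 in either. The 6 intervals for SAT1 together spanned -0.49 to 0.56 (lower end in K498A, upper end in GA-KH). Those for OAZ1 together spanned -0.23 to 0.36. CLIP siUPF1 replicate 2 is in none of these comparisons but enters the shared estimate of spread. Without it 1 was called: AZIN1 rose more in DE636AA than in WT, by 0.28 (SE 0.07, adjusted p = 0.0112). The share over all genes was then 2.94%.

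Levels before knockdown were compared as siNT libraries of each line against siNT libraries of CLIP. OAZ1 was higher in A546H (494, 509.9 and 560.1 against 405, 395 and 427 CPM, 0.35, SE 0.07, adjusted p = 0.0201). SAT1 was higher in DE636AA (500.4, 671 and 583 against 376, 404 and 399 CPM, 0.57, SE 0.15, adjusted p = 0.0471). Both groups were separate from CLIP. These were the 2 calls among 56 tests, with 7 tests at an unadjusted p under 0.05. Of all tested genes 0.690% were called higher in DE636AA and 0.0993% in A546H. R843C had 0.0836%, GA-KH 0.0575%, K498A 0.0261%, WT 0.0157% and E797R 0.0105%. Each call was lost without any 1 of the CLIP siNT libraries, without siNT replicate 2 of its own line and without siNT replicate 3 of its own line.

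Other siNT values did not pass with all libraries. SAT1 in K498A, at 640.4, 509 and 545.9 CPM, differed from CLIP by 0.53 (SE 0.15, adjusted p = 0.189). AZIN1 in R843C, at 153, 149 and 144 CPM against 117, 121 and 116, differed by 0.34 (SE 0.13, adjusted p = 1), and in A546H by 0.26 (SE 0.13, adjusted p = 0.745). Leaving out CLIP siUPF1 replicate 2 these 3 were called as well, at 0.53 (adjusted p = 0.0312), 0.34 (adjusted p = 0.000264) and 0.27 (adjusted p = 0.00752), which made 5 calls, beside 0.433% of the tests of all genes. In A546H, OAZ1 with siNT was at 521 ± 34.4 CPM (SD, n = 3), beside 543 ± 42.1 CPM in CLIP siUPF1, and the libraries of these groups overlapped.

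Ranked over the 16 groups, the 5 responding genes had siRNA-ordered levels to different degrees. For SMS the 7 groups at the top were siUPF1 groups, from 296 ± 13.3 CPM (SD, n = 3) in GA-KH down, and the siNT groups reached down to 211 ± 4.46 in E797R. The only neighbours in that order whose library ranges did not overlap were DE636AA siUPF1, from 251 CPM, and R843C siNT, up to 239 CPM. For AZIN1 the order ran from 188 ± 8.44 CPM in A546H siUPF1 to 112 ± 0.974 in E797R siNT, and 11 of 15 neighbouring pairs overlapped. OAZ2 ran from 73.5 ± 1.97 CPM in DE636AA siNT to 46.3 ± 1.34 in GA-KH siUPF1, with all 8 siNT groups on top and 14 of 15 pairs overlapping. SAT1 ran from 738 ± 80.7 CPM in DE636AA siUPF1 to 368 ± 45.4 in E797R siNT, and OAZ1 from 543 ± 42.1 in CLIP siUPF1 to 371 ± 2.61 in K498A siNT. Neighbours in those orders, and in those of ODC1, AMD1 and SRM, did not differ beyond their spread in any of 15 pairs. The highest group mean of ODC1 was 1.25 times the lowest, that of SAT1 2.00 times.

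Genes whose 16 group means of log2 CPM followed each of the 8 most closely were taken from 11528 genes with at least 5 CPM. The Pearson correlations describe groups that share the siRNA, the lines and the outlying library. For OAZ1 the nearest were BEX2 (0.93), SLC1A4 (0.92), an amino acid transporter, and BRMS1 (0.92). For SAT1 they were BTG2 (0.96), an antiproliferative early-response gene, PPOX (0.95), a heme synthesis enzyme, and RHOB (0.93), a small GTPase. AZIN1 was nearest to SUV39H2 (0.96), a histone methyltransferase, RHOQ (0.94) and CTAGE5 (0.93). SMS was nearest to STX7 (0.97), LEPROT (0.96) and the lysosomal membrane gene LAMP2 (0.96), and OAZ2 to RIMKLA (0.95), GNAO1 (0.94) and GSTP1 (0.93). ODC1 was nearest to the tubulin gene TUBA1C (0.90), NME1 (0.89) and PHB (0.87), and SRM to DAZAP1 (0.95), WBSCR22 (0.94) and TACC3 (0.94). The genes nearest to AMD1, INSIG2 (0.96), FAM46A (0.95) and ZBTB44 (0.95), dropped to 0.88, 0.75 and 0.83 without CLIP siUPF1 replicate 2, and the others stayed at 0.845 or above. Within the 8 genes, AZIN1 and SMS went together most (0.83), followed by ODC1 and SRM (0.78), and SAT1 and SRM were most opposed (-0.76).

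The rest of the pathway was read from lists grouped by role, chosen with earlier results of these data known. In CLIP 2 of 3 further breakdown genes and 3 of 5 transport genes rose. Of 9 genes of the methionine cycle and its salvage branch, which recycles the by-product of spermidine and spermine synthesis, 6 fell with all libraries and 3 without CLIP siUPF1 replicate 2. Over all tested genes 25.1% rose and 22.3% fell in CLIP, and 14% rose and 13.3% fell in WT, and these lists of 2 to 9 genes are too short to be read as a share. The breakdown genes had a median log2 fold change of 0.48 beside -0.01 over all tested genes. The spermine oxidase SMOX went from 8.29 ± 0.761 to 19.0 ± 3.99 CPM (SD, n = 3), 1.20 (SE 0.17, adjusted p = 2.54e-07). SAT2, a relative of SAT1, rose by 0.48 (SE 0.17, adjusted p = 0.0157), and PAOX was at 0.20 (SE 0.27). SMOX also rose in DE636AA (0.88), K498A (0.74), R843C (0.61) and A546H (0.46). It was at -0.08 in WT, 0.05 in GA-KH and 0.03 in E797R, and its WT response minus that of CLIP was -1.28 (SE 0.24, adjusted p = 0.00022). With CLIP siUPF1 replicate 2 left out the CLIP value of SMOX was 1.07 and its difference -1.17.

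Of the 5 tested transport genes 3 rose in CLIP, beside 25.1% of all genes, and ATP13A3 and SLC18B1 were not called (median 0.71). ATP13A2, a lysosomal polyamine exporter, rose by 1.33 (SE 0.16, adjusted p = 4.65e-09) and was called in all 8 lines (0.75 in DE636AA to 1.33 in CLIP). SLC3A2, an amino acid transporter subunit also linked to polyamine export, rose by 0.78 (SE 0.08, adjusted p = 9.27e-10), and SLC7A1, which imports arginine and ornithine, by 0.71 (SE 0.08, adjusted p = 8.66e-10). Their WT responses, 0.19 and 0.12, were not called (without CLIP siUPF1 replicate 2, SLC3A2 was, at 0.18, adjusted p = 0.0496), and minus those of CLIP they gave -0.58 (SE 0.12, adjusted p = 0.000592) and -0.59 (SE 0.11, adjusted p = 0.000157). SLC18B1 was called too without CLIP siUPF1 replicate 2 (0.44), which made 4 of 5. Of 3 tested supply genes ALDH18A1, which leads to ornithine and proline, rose in CLIP by 0.27 (SE 0.07, adjusted p = 0.00238), and ARG2 was called as well without that replicate (0.35, adjusted p = 0.0024), which made 2 of 3. ALDH18A1 was called lower in K498A (-0.56) and DE636AA (-0.58). Of the other antizyme family genes, OAZ3 and AZIN2, 0 of 2 were called in CLIP with all libraries, and AZIN2 was called lower without that replicate (-0.84, adjusted p = 0.00913).

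**Figure D3:**
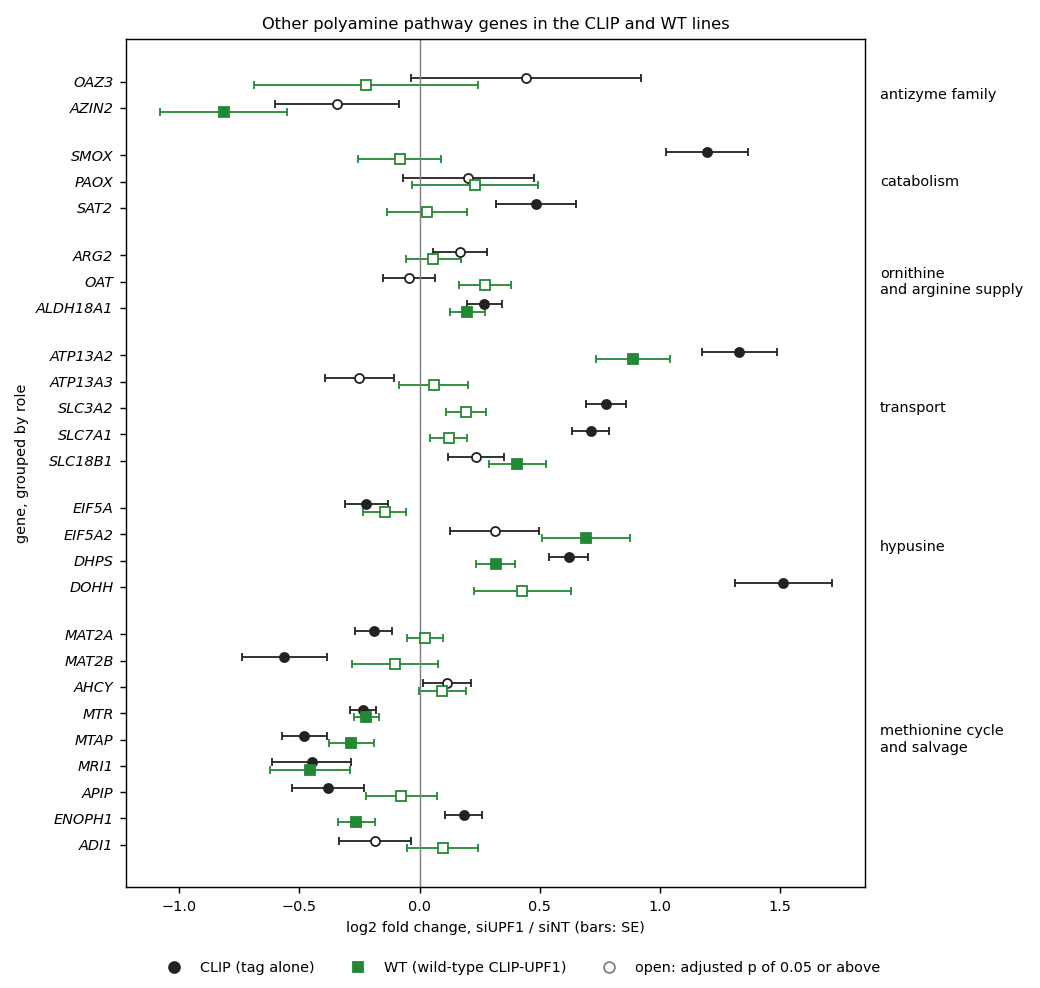
Log2 fold change of siUPF1 against siNT (horizontal axis, bars the standard error) of the other tested pathway genes, grouped by role (vertical axis), in CLIP (black circles) and WT (green squares), all libraries; open symbols have an adjusted p of 0.05 or above. SMOX is at 1.20 in CLIP and -0.08 in WT, while ATP13A2 is filled in both lines, at 1.33 and 0.89.

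Spermidine is also the substrate for hypusine, the modified residue of the translation factor EIF5A. Of the 4 hypusine genes 2 rose and 1 fell in CLIP, beside 25.1% and 22.3% of all genes (median 0.47). Without CLIP siUPF1 replicate 2, 3 rose and none fell, as EIF5A2 was called (0.63, adjusted p = 0.000157). DOHH, the hydroxylase, went from 26.2 ± 0.702 to 74.9 ± 34.5 CPM (SD, n = 3), 1.51 (SE 0.20, adjusted p = 6.76e-08), and 1.07 without replicate 2. DHPS, the synthase, rose by 0.62 (SE 0.08, adjusted p = 4.19e-08) and was called in all 8 lines (0.32 in WT to 0.62 in CLIP). EIF5A fell by 0.22 (SE 0.09, adjusted p = 0.0426), a call lost without replicate 2 (-0.16, adjusted p = 0.2). In WT the DOHH response was 0.43 and differed from that of CLIP by -1.09 (SE 0.28, adjusted p = 0.00744), and this difference was -0.66 (adjusted p = 0.0776) without replicate 2.

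Of the 9 genes of the methionine cycle and salvage 6 fell and 1 rose in CLIP, beside 22.3% and 25.1% of all genes (median -0.24). MTAP, which cleaves methylthioadenosine, fell by 0.48 (SE 0.09, adjusted p = 5.37e-05), MAT2B fell by 0.56 (SE 0.18, adjusted p = 0.00897), MRI1 fell by 0.45 (SE 0.16, adjusted p = 0.0232) and APIP fell by 0.38 (SE 0.15, adjusted p = 0.0324). With CLIP siUPF1 replicate 2 left out 3 fell and 1 rose. MTAP (-0.29) and MRI1 (-0.72) were still called, and MAT2B (-0.21) and APIP (-0.10) were not. In WT 4 of the 9 fell, beside 13.3% of all genes, and none was called higher, with or without that library. ENOPH1, a further salvage enzyme, was at 0.18 in CLIP and -0.26 in WT, both called, and the difference was -0.45 (SE 0.11, adjusted p = 0.00386).

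The responses can be set beside those of transcripts widely used as NMD readouts, with no test between them. Of 13 such reference genes, among them GAS5, GADD45B, ATF4 and BAG1, 13 rose in CLIP (median 1.09), 12 in R843C (0.60), 11 in DE636AA (0.61), 9 in K498A (0.68) and 7 in A546H (0.29). In WT, GA-KH and E797R 1, 2 and 2 rose and 1, 0 and 1 fell, with medians of 0.01, 0.02 and 0.03. Leaving out CLIP siUPF1 replicate 2, 13 rose in CLIP, beside 21.4% of all genes, and 1 rose and 2 fell in WT. The 1 that rose in WT was BAG1 (0.99, adjusted p = 1.27e-07). No share over all genes is given for WT in that fit. SMS and OAZ2 were called in each of WT, GA-KH and E797R, SAT1 in GA-KH and E797R, and AZIN1 in GA-KH, with all libraries. AZIN1 in WT and E797R and SAT1 in WT did not pass with all libraries (adjusted p = 0.128, 0.089 and 0.0996) and passed without CLIP siUPF1 replicate 2. OAZ1 was at 0.04, 0.02 and 0.11 there, and OAZ1, ODC1, AMD1 and SRM were called in none of them in either fit. The labels name no other siRNA against UPF1. In changes also seen in WT, loss of endogenous UPF1 and any other effect of siUPF1 therefore cannot be told apart. All values are RNA levels, and slower decay and more transcription cannot be told apart in them.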

How the data were processed

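The authors deposited 1 table of RSEM expected counts per gene and library, not normalised. Cutadapt, STAR, RSEM and DESeq2 are named with hg19, per the submitters' processing notes. Tool versions, the gene annotation and whether counting used strand are not given in the sources used here. Genes that overlap others on the opposite strand (OAZ1, OAZ2 and AZIN1) could therefore share reads. The OAZ1 neighbour JSRP1 had 411 counts over all libraries against 680567 for OAZ1, and 5 processed pseudogenes of ODC1, AMD1 and SRM had 0 to 16.

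After rounding, the expected counts went into edgeR 4.0.16 under R 4.3.3 (filterByExpr, TMM, factors 0.974 to 1.04). A quasi-likelihood fit to all 48 libraries with 1 term per group gave 28 comparisons, with p-values adjusted by Benjamini-Hochberg over all 19129 genes and calls made under 0.05. CPM and log2 CPM (prior count 2) came from edgeR. Alternatives were DESeq2 1.42.0, its size factors, no filter, a replicate block, fits to own libraries, and leaving out each library. The script was tested on simulated data. The series' design text calls the 3 libraries of a group biological replicates; within groups, no 2 agreed within sampling noise (chi-square per degree of freedom at least 3.74). The members, lists and tests were chosen with earlier results of these data known. Named were all 8 genes in every comparison, genes of other pathway lists called in CLIP (values for at most the 4 largest a list; PAOX, SLC18B1, AZIN2, OAZ3, EIF5A2, ARG2, ATP13A3 and ENOPH1 were added after their values were seen), and the 3 genes nearest to each of the 8. No AZIN1 sequence is reported here. ARG1, AGMAT and SLC12A8 were below the filter. Sequences are from GENCODE v29 (GRCh38), another build than that of the counts, and are shown for their features only.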

Additional observations from a re-analysis of the deposited data

Results flagged for a closer look

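Differences between the response of a line and that of the tag-alone line were flagged where the interaction test in edgeR passed an adjusted p of 0.05. For OAZ1 these were -0.36 (SE 0.10) in WT, -0.37 (SE 0.10) in A546H, -0.39 (SE 0.10) in GA-KH and -0.30 (SE 0.10) in E797R, all on the log2 scale and all against the same 6 CLIP libraries. In A546H the OAZ1 level with siNT was already called higher than in CLIP. Among the other pathway genes the response in WT minus that in CLIP was -1.28 (SE 0.24) for SMOX, -0.58 (SE 0.12) for SLC3A2, -0.59 (SE 0.11) for SLC7A1, -1.09 (SE 0.28) for DOHH and -0.45 (SE 0.11) for ENOPH1. Without CLIP siUPF1 replicate 2 the difference of DOHH no longer passed, and the other 8 did. Groups of 3 libraries are too small for a test of outlying samples.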

How the results depend on the processing

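No value of the 8 genes reversed its direction past the threshold under any setting tried. The number called of 64 responses was 22 with DESeq2 size factors in edgeR, 23 with DESeq2, 28 with no filter on low counts, 28 when each comparison was fitted to its own libraries, and 25 with the replicate block. Shares over all genes are not given for these settings, so the counts show only how calls depend on the setting. Same-numbered siNT and siUPF1 libraries of a line correlated in their deviations at -0.01 to 0.28 (median 0.12, 15 of 24 above 0.1). Each library was set against the 3 libraries of its line with the other siRNA. Most libraries, 41 of 48, correlated best with the one of their own number. No label gives the numbers as pairs, and the main tests did not treat them as pairs. The replicate block gave each number the same shift in all 8 lines, so pairing within a line was not modelled. With the block OAZ1 in K498A was also called, which made 2 calls there, as did no filter (2), where 1 was called before, and SAT1 in R843C was called. Of the differences from CLIP no filter called 6, none of them among the 4 of OAZ1. Fits to own libraries called 0 differences from CLIP instead of 4, 1 response in CLIP instead of 5, 4 in WT instead of 2, 3 in K498A instead of 1 and 5 in R843C instead of 3.

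Leaving out 1 library at a time, among those each comparison uses, gave 19 to 32 of 64 responses, 2 to 14 of 56 differences from CLIP, 0 of 48 differences from WT and 0 to 2 of 56 siNT calls. By line, without 1 of the line's own libraries, the responses called were 3 to 5 in CLIP, 3 to 4 in GA-KH, 2 in A546H, 1 to 2 in each of DE636AA, E797R and WT, 1 in K498A and 0 to 1 in R843C. Without CLIP siUPF1 replicate 2, a setting chosen after seeing the data for comparisons that do not use it, 1 difference from WT, 5 siNT values, 4 responses in WT, 5 in DE636AA, 2 in K498A, 4 in E797R, 4 in R843C, 4 in GA-KH and 4 in A546H were called. The SE of the SMS responses was 0.14 with that library and 0.06 to 0.07 without it. With 3 libraries a group the SE of a response ran from 0.07 for OAZ1 to 0.15 for SAT1 and AMD1, which limits what could be called.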
